A study of Mus musculus with 8 samples.

Results

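The 10 genes described here are imprinted genes of fetal growth: *Igf2*, *H19*, *Dlk1*, *Meg3*, *Rian*, *Mirg*, *Peg3*, *Plagl1*, *Grb10* and *Mest*. They were matched by symbol to the Ensembl identifiers of the deposited gene table, which lists 53465 genes. Of these, 15580 had enough reads to be tested, and all 10 members were among them. Expression was measured by RNA-seq of poly(A) RNA from heart ventricles of mouse embryos at E15.5 (embryonic day 15.5), with 4 libraries from each of 2 genotypes. Mutant embryos, called *Nrg1GOF* here, carry an *Nrg1* transgene at the *Rosa26* locus together with a Cre driver that the series title gives as Nkx2.5-Cre and the genotype label as Nkx5.5-Cre. The transgene is switched on by Cre, so that neuregulin-1, which signals through ErbB receptors, is meant to be made in excess by cells of the driver's lineage. Which cells of the ventricle made it was not measured. Control embryos are labelled WT, with neither transgene nor Cre named, and the labels give no litter or sex. Each library is listed as a ventricle sample of its own, so that p-values measure the spread between the samples as listed.

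Imprinted genes are transcribed mainly from the copy inherited from one parent, under the control of DNA methylation laid down in the germ line. Many act on the growth of the fetus and placenta, and paternally expressed genes such as *Igf2* and *Dlk1* tend to promote growth, whereas maternally expressed genes such as *H19* and *Grb10* tend to restrain it. Several of the loci give rise to long noncoding RNAs that are the precursors of microRNAs (miRNAs). Many of them are transcribed at high levels in fetal organs and fall after birth. The reads were not assigned to parental copies, so the values below are totals over both copies.

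Of the 10 members, 6 contain miRNA genes within their annotated bodies: 1 each in *Igf2*, *H19* and *Mest*, 2 in *Meg3*, 3 in *Rian* and 14 in *Mirg*. RefSeq (GRCm38.p6) gives 41 mature miRNAs for these 22 genes, with 40 different seeds. The seed is the stretch of bases 2 to 8 with which a miRNA pairs to its targets, and it is in capitals in the sequences that follow. A few are printed as examples, with both arms for *H19* and *Mest* and 1 arm for *Igf2*, *Meg3* and *Rian*. Those of *H19*, *Igf2* and *Mest* are shown because their hosts are the 3 most abundant members, those of *Meg3* and *Rian* because they come from adjacent transcripts of 1 cluster, and the last 2, from *Mirg*, because GGUUGCC was the single seed held by more than 1 of the hosted miRNAs. Mature miRNAs were not measured in these libraries.
miR-675-5p (*H19*): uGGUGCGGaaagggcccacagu
miR-675-3p (*H19*): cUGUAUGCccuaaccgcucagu
miR-483-3p (*Igf2*): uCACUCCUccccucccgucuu
miR-335-5p (*Mest*): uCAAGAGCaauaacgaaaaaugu
miR-335-3p (*Mest*): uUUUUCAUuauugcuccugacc
miR-770-3p (*Meg3*): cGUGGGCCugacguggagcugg
miR-370-3p (*Rian*): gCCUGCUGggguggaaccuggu
miR-453 (*Mirg*): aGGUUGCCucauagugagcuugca
miR-496a-5p (*Mirg*): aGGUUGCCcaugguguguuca

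*Nrg1* separated the genotypes, with 59.7 to 63.7 CPM in the *Nrg1GOF* libraries and 3.07 to 4.47 CPM in the WT libraries. CPM are counts scaled to a common library size by TMM. The log2 fold change, given throughout as *Nrg1GOF* over WT, was 3.94 (SE 0.10, edgeR quasi-likelihood adjusted p = 8.26e-08). Library totals lay between 18754259 and 26786039 counts except in *Nrg1GOF* library 4, which held 8038641. A floor of 3 counts per library corresponded to 0.112 to 0.373 CPM, which covers counting error only. WT libraries 1 and 2 stood apart from WT libraries 3 and 4 on the second principal component of all genes, which carried 16.5% of the variance. The median chi-square per gene was 1.01 between WT libraries 1 and 2 and 0.865 between WT libraries 3 and 4, against 2.40 to 2.87 across these pairs and 0.455 from counting noise alone. The members of each pair were therefore close but not within counting noise. This cannot show that they were separate samples, because 2 libraries made from 1 sample can also differ by more than counting noise. The 4 WT libraries were kept as 4 samples because the titles list them so. Where summing them to 2 samples ended the call of a named gene, this is given in its paragraph.

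Of the 10 members, 4 differed between the genotypes at an adjusted p under 0.05. *Mest* and *Rian* were higher and *Grb10* and *Plagl1* were lower in *Nrg1GOF* ventricles. Across all tested genes, 28.7% were called, 15.9% as higher and 12.8% as lower, so that calls were common in this comparison. The groups did not overlap in any library for the same 4 members, against 30.7% of all tested genes. *Mest* was the single member with a log2 fold change of at least 1, a size that 4.65% of tested genes reached together with a call. The median log2 fold change was 0.12 over the 10 members and -0.01 over all tested genes. Together the members made up 1.66% to 1.73% of the counts of a WT library and 1.84% to 1.99% of those of a *Nrg1GOF* library. *Mest* alone made up 0.181% to 0.199% of the counts of a WT library and 0.398% to 0.503% of those of a *Nrg1GOF* library.

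**Figure D1:**
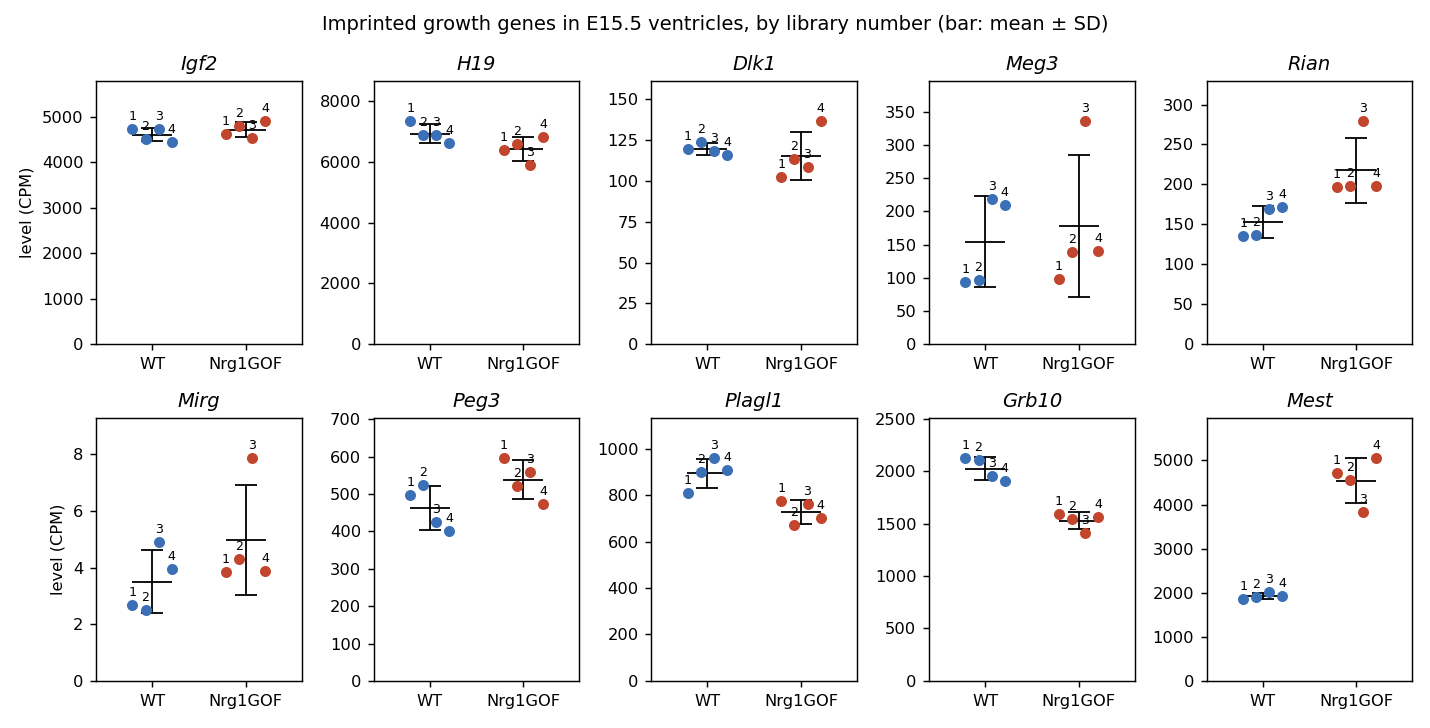
Level of each member in CPM (vertical axes, from 0) in the WT (blue) and *Nrg1GOF* (red) libraries, with the library number above each point and the mean ± SD of 4 libraries as a black bar. *Mest*, *Rian*, *Grb10* and *Plagl1* show no overlap between the groups, and *Meg3* and *Mirg* are highest in *Nrg1GOF* library 3.

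Levels of different genes were set side by side per kilobase of exons. *H19* was the most abundant member in WT ventricles, at 2819 ± 124 CPM per kb (SD, n = 4), which placed it at rank 12 of 15565 ranked genes. *Igf2* followed at 805 ± 25.4 CPM per kb (rank 31), *Mest* at 486 ± 16.7 (rank 59), *Grb10* at 222 ± 12 (rank 153) and *Plagl1* at 114 ± 8.11 (rank 347). *Peg3* and *Dlk1* stood at 34.6 ± 4.42 and 21.1 ± 0.61 CPM per kb. *Meg3*, at 8.55 ± 3.81, and *Rian*, at 8.41 ± 1.09 CPM per kb, did not differ beyond their spread. *Mirg* was the lowest, at 0.48 ± 0.15 CPM per kb (rank 13407). In *Nrg1GOF* ventricles *Mest* reached 1150 ± 130 CPM per kb, above *Igf2* at 823 ± 28.8 CPM per kb, whereas in WT it lay below *Igf2* in all 4 libraries.

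*Mest* (ENSMUSG00000051855, chr6:30723547-30748465 on the plus strand, GRCm38), a paternally expressed gene for a protein of the alpha/beta hydrolase family, was 2.36-fold higher in *Nrg1GOF* ventricles. *Nrg1GOF* libraries 1 to 4 held 4704, 4548, 3839 and 5058 CPM, and WT libraries 1 to 4 held 1854, 1895, 2009 and 1918 CPM. The lowest *Nrg1GOF* library lay well above the highest WT library, and the WT libraries were close to each other, with a coefficient of variation of 3.43% against a median of 9.20% over all tested genes. The means were 4538 ± 512 and 1919 ± 65.9 CPM (SD, n = 4), and the log2 fold change was 1.24 (SE 0.08, adjusted p = 1.22e-05). *Mest* hosts miR-335, whose sequences are given above. *Copg2*, which lies on the opposite strand and overlaps *Mest*, showed 96.2 CPM in WT and 89.3 CPM in *Nrg1GOF* ventricles (log2 fold change -0.11, adjusted p = 0.194). The strand setting of the counting is not given in the sources used here.

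Markers of other ventricular cell types moved with genotype as well. All 7 fibroblast markers tested were higher in *Nrg1GOF* ventricles, and their summed level lay between 3414 and 4698 CPM in WT and between 6494 and 8011 CPM in *Nrg1GOF* libraries. All 5 macrophage markers were higher, with sums of 40.6 to 48.8 CPM in WT and 72.4 to 86.0 CPM in *Nrg1GOF* libraries. Of 7 cardiomyocyte markers, 3 were lower, and the sums were 29634 to 33455 CPM in WT and 23444 to 26317 CPM in *Nrg1GOF* libraries. *Myh7*, the most abundant of the 7, weighed most in these sums, and its mean fell from 17606 CPM (WT) to 12616 CPM (*Nrg1GOF*). *Tnnt2* and *Actn2* were the other lower markers. *Myh6* moved the other way without a call (log2 fold change 0.51, adjusted p = 0.105). *Ryr2*, *Ttn* and *Nkx2-5*, also not called, stood at -0.70, -0.58 and -0.03. In RNA of whole ventricles, more cells of a type and more RNA per cell cannot be told apart. The part of cell composition in the changes of *Mest*, *Rian*, *Grb10* and *Plagl1* was not tested.

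*Grb10* (ENSMUSG00000020176, chr11:11930508-12038683, minus strand), the maternally expressed adaptor that binds the insulin and IGF1 receptors and dampens their signal, was lower in *Nrg1GOF* ventricles. It was measured at 1595, 1546, 1411 and 1559 CPM across *Nrg1GOF* libraries 1 to 4, compared with 2126, 2104, 1950 and 1909 CPM across WT libraries 1 to 4. All *Nrg1GOF* libraries lay below all WT libraries, and the spread within either group was smaller than the gap between them. The means were 1528 ± 80.3 and 2022 ± 109 CPM (SD, n = 4), and the log2 fold change was -0.40 (SE 0.06, adjusted p = 0.00104). *Grb14*, a related adaptor of the same family that is not imprinted, also fell, by 0.55 on the log2 scale (SE 0.06, adjusted p = 0.000113).

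*Plagl1* (ENSMUSG00000019817, chr10:13060504-13131694, plus strand) encodes a paternally expressed zinc finger transcription factor. It reached 777, 672, 761 and 702 CPM across *Nrg1GOF* libraries 1 to 4, compared with 808, 899, 961 and 909 CPM across WT libraries 1 to 4. WT library 1 came within a short distance of the highest *Nrg1GOF* library. The log2 fold change was -0.30 (SE 0.07, adjusted p = 0.0110), with group values of 728 ± 49.6 and 894 ± 63.4 CPM. The call was lost when the WT libraries were summed by pairs (-0.28, adjusted p = 0.0741), as it was with WT libraries 1 and 2 as the sole controls (-0.23, adjusted p = 0.0954).

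**Figure D2:**
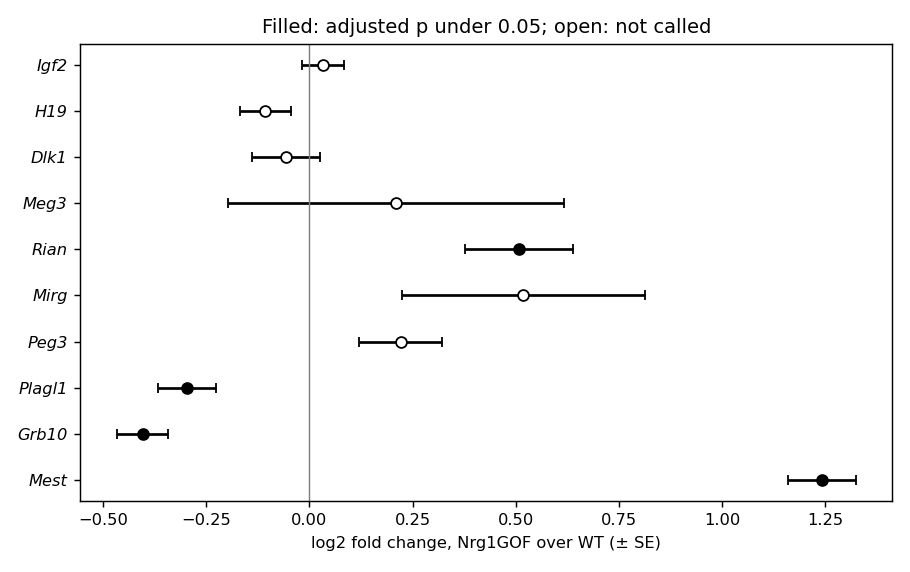
Log2 fold change of *Nrg1GOF* over WT for the 10 members (horizontal axis) with bars of ± 1 SE, filled where the adjusted p over all tested genes was under 0.05. *Mest* stands at 1.24, *Rian* at 0.51, *Plagl1* at -0.30 and *Grb10* at -0.40, and *Meg3* has the widest bar (SE 0.41).

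*Dlk1*, *Meg3*, *Rian* and *Mirg* lie in this order in one imprinted cluster on chromosome 12, all on the plus strand. *Dlk1* (chr12:109452823-109463336) encodes a transmembrane protein related to Notch ligands and is expressed from the paternal copy, whereas the noncoding RNAs *Meg3* (chr12:109541001-109571726), *Rian* (chr12:109603940-109661716) and *Mirg* (chr12:109729764-109749460) are expressed from the maternal copy. *Rian*, the host of many small nucleolar RNAs, was higher in *Nrg1GOF* ventricles, and the other 3 were not called. *Nrg1GOF* libraries 1 to 4 held 196, 198, 279 and 197 CPM of *Rian*, compared with 136, 137, 170 and 171 CPM for WT libraries 1 to 4. All *Nrg1GOF* libraries lay above all WT libraries, with library 3 far above the other 3. The log2 fold change was 0.51 (SE 0.13, adjusted p = 0.0164), and 0.37 without *Nrg1GOF* library 3 (adjusted p = 0.0206). The call was lost with the WT libraries summed by pairs (0.51, adjusted p = 0.0815), as it was with WT libraries 3 and 4 as the sole controls (0.36, adjusted p = 0.0985). The expected counts of *Rian* and *Meg3* were not whole in any library, as part of their reads was shared with other genes.

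*Meg3* varied more within a genotype than between genotypes. It was measured at 98.2, 139, 336 and 141 CPM across *Nrg1GOF* libraries 1 to 4, compared with 93.3, 96.8, 219 and 209 CPM across WT libraries 1 to 4. WT libraries 3 and 4 and *Nrg1GOF* library 3 were high and the other 5 were low, so that the groups overlapped widely. Its coefficient of variation in WT was 44.6%, higher than that of 93.7% of the tested genes, while that of *Dlk1* next to it was 2.89%. The log2 fold change of 0.21 (SE 0.41, adjusted p = 0.749) turned to -0.30 without *Nrg1GOF* library 3 (adjusted p = 0.541), to 0.91 with only WT libraries 1 and 2 as controls (adjusted p = 0.170) and to -0.25 with only WT libraries 3 and 4 (adjusted p = 0.686). Its body overlaps *Gm26906* on the opposite strand, a gene with a total of 1 count over all libraries.

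*Mirg*, a precursor of many miRNAs of the cluster, was present at low counts, between 31 and 184 per library. *Nrg1GOF* libraries 1 to 4 held 3.86, 4.29, 7.87 and 3.88 CPM, and WT libraries 1 to 4 held 2.68, 2.51, 4.89 and 3.93 CPM. As for *Meg3*, the highest value of each genotype was in library 3. The log2 fold change of 0.52 (SE 0.29, adjusted p = 0.226) was close in size to that of *Rian* but had a larger error, and it was 0.20 without *Nrg1GOF* library 3 (adjusted p = 0.597). *Dlk1* was measured at 102, 114, 108 and 137 CPM in *Nrg1GOF* libraries 1 to 4 and at 116 to 124 CPM in WT libraries. Its log2 fold change was -0.06 (SE 0.08, adjusted p = 0.663), and the *Nrg1GOF* libraries lay on either side of the WT values. The fold change was -0.0041 without *Nrg1GOF* library 1 and -0.13 without *Nrg1GOF* library 4.

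The WT libraries were compared by pairs for all members. *Meg3* was 2.25 times as high in WT libraries 3 and 4 as in WT libraries 1 and 2, *Mirg* 1.70 times and *Rian* 1.25 times. *Peg3* stood at 0.807 times, and the other 6 members lay between 0.912 and 1.10 times. Of 13065 genes with an average log2 CPM of at least 1, 166 (1.27%) were at least 2 times as high in WT libraries 3 and 4. These are ratios of means of 2 libraries, and no test was made of them. *Neat1*, a nuclear noncoding RNA looked up after these values were seen, was likewise high in WT libraries 3 and 4 and in *Nrg1GOF* library 3, with 7.76, 7.96, 23.3 and 22.5 CPM in WT libraries 1 to 4 and 13.0, 18.0, 37.6 and 14.0 CPM in *Nrg1GOF* libraries 1 to 4. The second principal component of all genes stood at -30.1, -26.8, 19 and 18.8 in WT libraries 1 to 4 and at -8.79, 3.39, 26.6 and -2.17 in *Nrg1GOF* libraries 1 to 4. The labels name no batch, and the source of this difference between libraries was not tested.

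**Figure D3:**
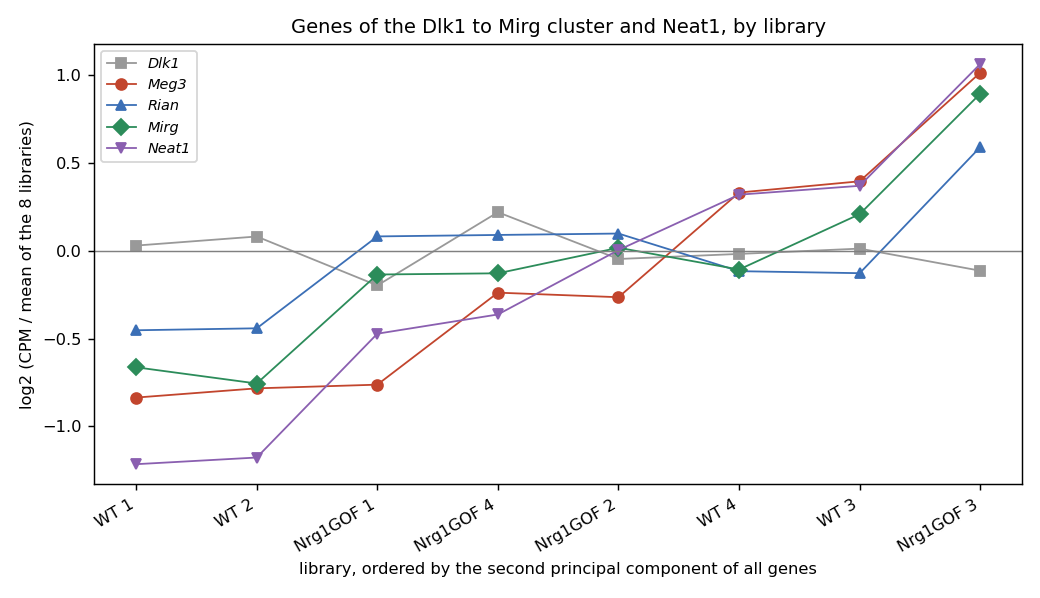
Level of *Dlk1*, *Meg3*, *Rian*, *Mirg* and *Neat1* in each library as log2 of its CPM over its mean of the 8 libraries (vertical axis), with libraries ordered by the second principal component of all genes (horizontal axis). *Meg3* and *Neat1* are lowest in WT library 1 and highest in *Nrg1GOF* library 3, and *Dlk1* varies least of the 5 genes.

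The start regions of the 3 noncoding RNAs of the cluster are shown because all 3 were highest in *Nrg1GOF* library 3 and lowest in WT libraries 1 and 2. Each window holds 250 bases before and 50 bases after a start given by RefSeq (GRCm38.p6), on the plus strand. Capitals mark the cyclic AMP response element TGACGTCA, a palindrome that reads alike on both strands.
*Meg3*, chr12:109540746-109541045: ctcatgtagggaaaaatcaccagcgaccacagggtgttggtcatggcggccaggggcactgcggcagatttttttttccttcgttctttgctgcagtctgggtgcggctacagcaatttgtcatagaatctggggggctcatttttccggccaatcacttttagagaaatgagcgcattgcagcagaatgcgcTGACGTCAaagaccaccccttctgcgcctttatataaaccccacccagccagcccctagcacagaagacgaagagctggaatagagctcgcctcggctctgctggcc
*Rian*, chr12:109603695-109603994: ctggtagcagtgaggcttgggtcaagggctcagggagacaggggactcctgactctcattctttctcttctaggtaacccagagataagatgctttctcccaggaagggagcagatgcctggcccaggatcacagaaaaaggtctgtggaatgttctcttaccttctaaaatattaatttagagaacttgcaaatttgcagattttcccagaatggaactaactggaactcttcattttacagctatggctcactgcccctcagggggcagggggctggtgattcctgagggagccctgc
*Mirg*, chr12:109734731-109735030: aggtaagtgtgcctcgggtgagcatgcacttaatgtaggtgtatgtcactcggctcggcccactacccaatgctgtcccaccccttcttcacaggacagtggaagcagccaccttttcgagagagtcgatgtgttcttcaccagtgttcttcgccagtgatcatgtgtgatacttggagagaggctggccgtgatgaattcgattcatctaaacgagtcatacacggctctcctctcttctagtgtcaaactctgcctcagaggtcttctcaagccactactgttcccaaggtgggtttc
The *Meg3* window shown holds the element at 57 bases before the start, and the *Rian* and *Mirg* windows hold no match. RefSeq gives a second, downstream start for *Meg3*, whose window has no match and 1 CG dinucleotide. Of the 16 windows found for 9 members, the one other match was in *Peg3*, at 178 bases before its start. The element is present in 588 of the 32851 windows of the table (1.79%). The *Meg3* window shown contains 13 CG dinucleotides and the *Mirg* window 10, whereas the *Rian* window has 0, with a median of 7 over all windows. The *Mirg* window lies inside the annotated body of the gene and covers the mature sequences of miR-668 and miR-485-3p. These matches describe the sequence and not the binding of a factor.

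*Igf2* and *H19* lie side by side on chromosome 7 on the minus strand (chr7:142650766-142666816 and chr7:142575529-142578143) and share enhancers, with *Igf2* made from the paternal and *H19* from the maternal copy. *Igf2*, a principal growth factor of the fetus, was measured at 4616, 4790, 4539 and 4901 CPM across *Nrg1GOF* libraries 1 to 4, compared with 4733, 4512, 4727 and 4452 CPM across WT libraries 1 to 4. The groups overlapped, and the log2 fold change was 0.03 (SE 0.05, adjusted p = 0.690), ranging from 0.015 to 0.056 when a library was left out. *H19*, a noncoding RNA, was measured at 6410, 6607, 5894 and 6839 CPM in *Nrg1GOF* libraries and at 7347, 6878, 6898 and 6613 CPM in WT libraries. Its log2 fold change was -0.11 (SE 0.06, adjusted p = 0.235), with *Nrg1GOF* library 4 inside the WT range, and it was -0.06 without *Nrg1GOF* library 3. *Igf2* is overlapped by *Igf2os* on the opposite strand, which was not called (log2 fold change -0.12, adjusted p = 0.153).

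The ratio of *H19* to *Igf2* within a library does not depend on the scaling between libraries. It was 1.39, 1.38, 1.3 and 1.4 in *Nrg1GOF* libraries 1 to 4 and 1.55, 1.52, 1.46 and 1.49 in WT libraries 1 to 4. Every *Nrg1GOF* library thus lay below every WT library, although neither gene alone separated the groups. The log2 ratio was 0.45 ± 0.05 in *Nrg1GOF* and 0.59 ± 0.04 in WT (SD, n = 4), a difference of -0.14 with an exact two-sided permutation p = 0.0286, the smallest that 4 libraries against 4 allow. After adjustment over the 4 ratios tested it was 0.114, which is the lowest that this test can give a single separated ratio among 4, so that it could not have called the difference whatever its size. The *Dlk1* to *Meg3*, *Rian* to *Meg3* and *Mirg* to *Meg3* log2 ratios differed by -0.22, 0.34 and 0.33, with exact permutation p = 0.743, 0.343 and 0.171 and adjusted p = 0.743, 0.457 and 0.343. The first of these turned to 0.16 without *Nrg1GOF* library 3. With a library left out, the *Rian* to *Meg3* difference ranged from 0.15 (without *Nrg1GOF* library 1) to 0.57 (without *Nrg1GOF* library 3), and that of *Mirg* to *Meg3* from 0.20 to 0.45 (without the same libraries).

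**Figure D4:**
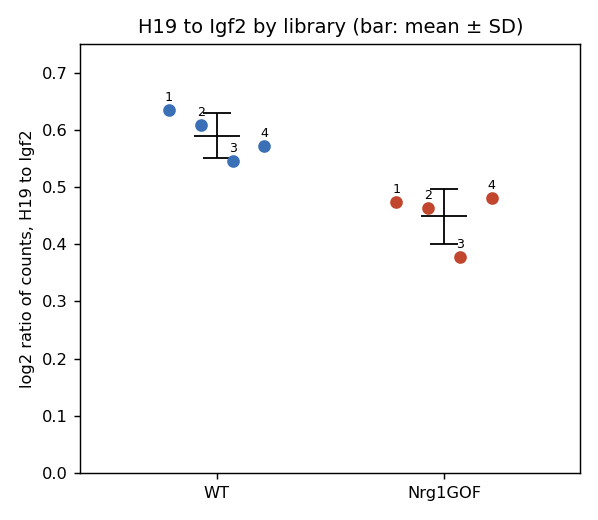
Log2 ratio of *H19* to *Igf2* counts (vertical axis, from 0) in each WT and *Nrg1GOF* library, with the library number above each point and the mean ± SD of 4 libraries as a black bar. The WT libraries lie between 0.55 and 0.63 and the *Nrg1GOF* libraries between 0.38 and 0.48.

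*Peg3* (ENSMUSG00000002265, chr7:6703892-6730431, minus strand), a paternally expressed zinc finger gene, was measured at 596, 521, 559 and 474 CPM across *Nrg1GOF* libraries 1 to 4, compared with 497, 525, 425 and 400 CPM across WT libraries 1 to 4. The groups overlapped, because WT library 2 exceeded 2 of the *Nrg1GOF* libraries. The log2 fold change was 0.22 (SE 0.10, adjusted p = 0.132). With only WT libraries 1 and 2 as controls it was 0.07 (adjusted p = 0.659), and with only WT libraries 3 and 4 it was 0.39 and called (adjusted p = 0.0183). The fibroblast and red blood cell marker sums were also higher in WT libraries 1 and 2 than in WT libraries 3 and 4, and their part in this was not tested.

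Genes near the members were examined next. Within 200 kb of a member body the annotation places 176 genes, of which 27 were tested, and 6 were higher and 6 lower in *Nrg1GOF* ventricles, where 15.9% of all tested genes were higher and 12.8% lower. Their median log2 fold change was -0.02. Near *Mest*, the carboxypeptidase gene *Cpa4* was higher, at 7.88 ± 0.65 against 1.61 ± 0.46 CPM (log2 fold change 2.31, SE 0.20, adjusted p = 5.08e-05), and its neighbour *Cpa1* was lower (-0.56, adjusted p = 0.0229, and 0.0890 with the WT libraries summed by pairs, which left 10 neighbours called). Near *Grb10*, the dopa decarboxylase gene *Ddc*, which is paternally expressed in the fetal heart, showed the lowest fold change, at 54.8 ± 10.9 against 177 ± 46.8 CPM (-1.71, SE 0.19, adjusted p = 0.000213). Also in this region *Cobl*, an actin nucleator, fell by 0.67 (adjusted p = 0.00219), while *Ikzf1*, a transcription factor of blood cells, was higher by 1.13 (adjusted p = 0.00414). Near *H19* and *Igf2*, the leukocyte gene *Lsp1* was higher by 1.11 (SE 0.07, adjusted p = 7.86e-06), and *Tnni2*, the troponin I of fast muscle, fell by 1.5 (adjusted p = 0.000605). The macrophage marker sum was higher in the same libraries as *Ikzf1* and *Lsp1*, and its part in their change was not tested.

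The wider IGF pathway was described from 28 genes, of which 21 were tested, and 11 were higher and 2 lower, beside 15.9% and 12.8% of all tested genes. The median log2 fold change was 0.33. With the WT libraries summed by pairs 10 were called, without *Stc2*, *Insr* and *Igf2bp2* (adjusted p = 0.0803, 0.0646 and 0.0870). IGF binding proteins hold IGFs in the extracellular space, and the pappalysins cut them to release the ligand. *Pappa*, the first pappalysin, rose from 2.87 ± 0.90 to 9.22 ± 1.31 CPM (1.68, SE 0.22, adjusted p = 0.000501). *Pappa2* rose from 1.87 ± 0.45 to 4.92 ± 1.25 CPM (1.40, adjusted p = 0.00224). *Igfbp7* was higher by 1.09 (adjusted p = 0.000280), and *Igfbp3*, *Igfbp4* and *Igfbp5* were called in the same direction, by 0.57, 0.52 and 0.70. *Igfbp6* (0.54, adjusted p = 0.138) and *Igfbp2* (-0.24, adjusted p = 0.215) were not called. *Stc1* and *Stc2*, inhibitors of the pappalysins, were higher by 0.53 and 0.45. The ligand *Igf1* was higher as well, at 82.6 ± 7.96 against 60.4 ± 4.84 CPM (0.46, SE 0.08, adjusted p = 0.00254). Of the receptors, *Insr* fell by 0.30 (adjusted p = 0.0106), and *Igf1r* (-0.02, SE 0.11) and the clearance receptor *Igf2r* (0.28, SE 0.12, adjusted p = 0.116) were not called. The adaptors *Irs1* and *Irs2* stood at -0.07 and 0.01. Among the RNA-binding proteins of *Igf2* mRNA, *Igf2bp2* was higher by 0.21 (adjusted p = 0.0111), and *Igf2bp1* and *Igf2bp3* stood at 0.02 each. Fibroblast markers were higher in the same libraries, as given above, and their part in these changes was not tested.

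**Figure D5:**
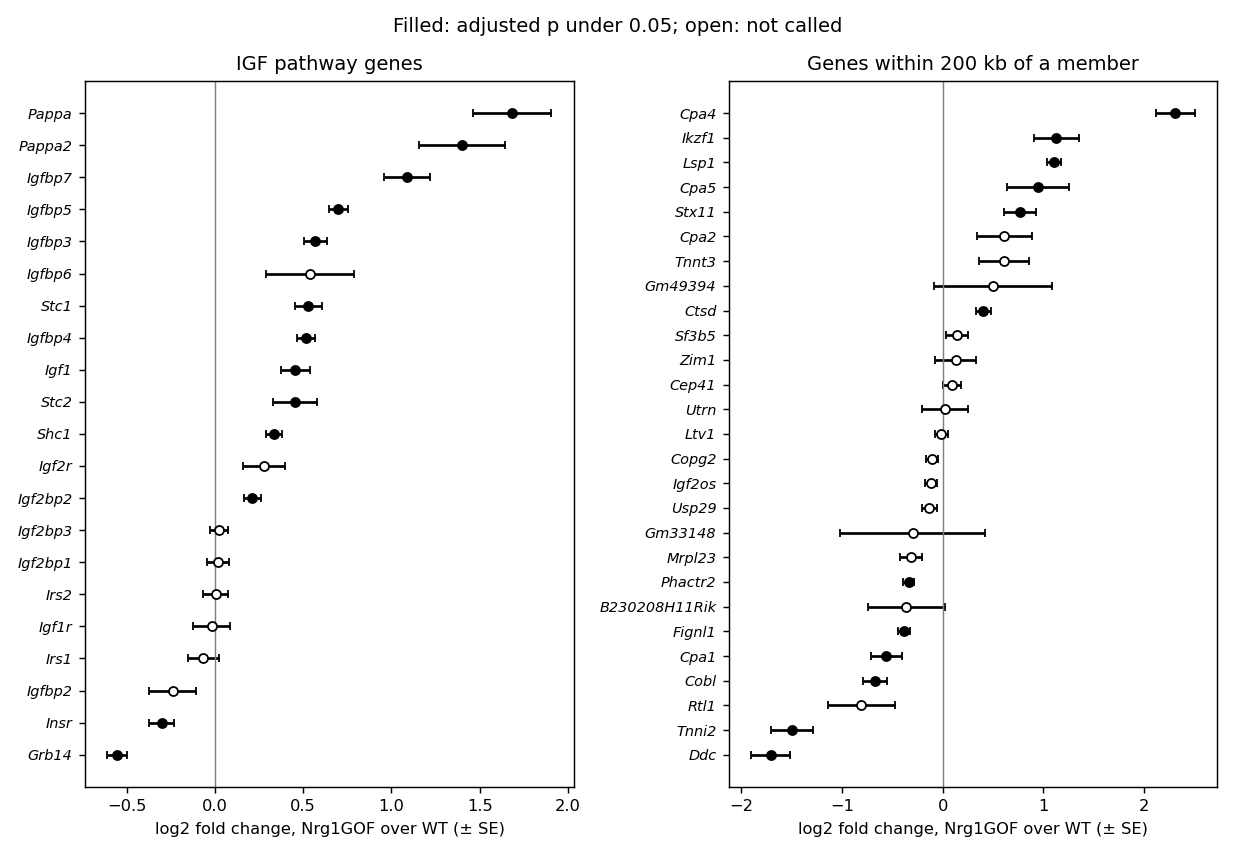
Log2 fold change of *Nrg1GOF* over WT (horizontal axes, ± 1 SE) for the tested genes of the IGF pathway (left) and for those within 200 kb of a member (right), filled where the adjusted p was under 0.05. In the pathway 11 genes are called higher and 2 lower, and among the neighbours 6 higher and 6 lower.

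Of 48 other imprinted genes, 42 were tested, and 12 were higher and 6 lower, beside 15.9% and 12.8% of all tested genes. The median log2 fold change was 0.12. The called genes with the highest fold changes were scarce. *Nap1l5* was measured at 0.21 ± 0.08 (WT) and 1.10 ± 0.45 CPM (*Nrg1GOF*). *Slc22a18* was measured at 0.33 ± 0.13 and 1.02 ± 0.31 CPM. Both passed the low-count filter only through the *Nrg1GOF* libraries, so that their calls are no support for the count. With a filter of at least 1 CPM in 4 libraries, which removes both, 10 were higher. *Slc22a3* rose from 0.72 ± 0.25 to 1.83 ± 0.65 CPM (1.41, adjusted p = 0.0105). These 3 had between 105 and 214 counts over all 8 libraries. Beside *Ddc*, which is also counted among the neighbours, the lowest fold changes among called genes were those of the potassium channel gene *Kcnq1*, from 56.3 ± 1.57 to 29.4 ± 3.38 CPM (-0.95, SE 0.08, adjusted p = 3.80e-05), and of *Gab1*, a docking protein of receptor tyrosine kinases, from 184 ± 0.85 to 125 ± 2.63 CPM (-0.56, SE 0.04, adjusted p = 3.07e-05). *Kcnq1ot1*, the noncoding RNA antisense to *Kcnq1*, stood at 0.01 (SE 0.36). With the WT libraries summed by pairs, 11 of the 42 were called, and *Slc22a18* was not among them. The cell type markers given above differed between the same libraries, and their part in these changes was not tested.

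Of 17 genes that maintain or edit methylation imprints, 15 were tested. By the edgeR test 4 were lower and 0 were higher, and 0 were higher at an unadjusted p under 0.05 or by DESeq2 or limma-voom. Among all tested genes 28.7% were called and 12.8% were lower. *Uhrf1*, which recruits the maintenance methyltransferase to replicated DNA, fell by 0.34 (SE 0.06, adjusted p = 0.00158), and that enzyme's gene, *Dnmt1*, fell by 0.21 (adjusted p = 0.0328). *Ctcf*, the insulator protein that binds the *H19* control region, fell by 0.20 (adjusted p = 0.0353), and *Yy1* by 0.16 (adjusted p = 0.0384). *Zfp57* and *Trim28*, which protect imprints in the embryo, were not called (0.30 and -0.13). The count of 4 dropped to 1 with the WT libraries summed by pairs, where *Dnmt1*, *Ctcf* and *Yy1* were not called (adjusted p = 0.121, 0.156 and 0.189), with library totals in place of TMM, and with no low-count filter. It also dropped to 1 without *Nrg1GOF* library 1 or 2 or WT library 1 or 2, and to 2 without *Nrg1GOF* library 4. Of 5 proliferation markers, 4 were also lower, with sums of 1068 to 1270 CPM in WT and 880 to 1022 CPM in *Nrg1GOF* libraries, and their part in this result was not tested.

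The tissue label was checked against marker genes. Cardiomyocyte markers were abundant in all libraries. Of 5 skeletal muscle regulators, *Myod1* and *Pax7* were at 0 in all libraries and the others under 1 CPM, and the 5 liver genes, among them *Alb* and *Afp*, were under 1 CPM in all libraries. The 6 genes listed as atrial markers, which include *Bmp10*, a gene that ventricular trabeculae also express, summed to between 290 and 350 CPM in WT and between 500 and 663 CPM in *Nrg1GOF* libraries, and 3 were higher. Of 7 endothelial and endocardial markers 4 were higher (sums of 1133 to 1158 CPM in WT and 1209 to 1332 CPM in *Nrg1GOF* libraries), and of 6 epicardial markers 4 were higher and 1 lower (151 to 173 and 195 to 221 CPM). Of 6 mural markers 2 were higher and 3 lower (1311 to 1505 and 963 to 1068 CPM). Of 8 red blood cell genes 0 were called by edgeR, 0 at an unadjusted p under 0.05 and 0 by DESeq2 or limma-voom. They summed to 13035 and 12192 CPM in WT libraries 1 and 2, to 5506 and 4420 CPM in WT libraries 3 and 4, and to between 5437 and 8903 CPM in *Nrg1GOF* libraries, with the lowest in library 3. The red blood cell sum was thus low in the libraries in which *Meg3* was high, and its part in that was not tested.

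The genes whose profile over the 8 libraries was most like that of each member were found by the root mean square difference of log2 levels, each centred on its own mean, among 13038 genes. The measure includes the difference between genotypes. For *Mest* they were *Lyz2* (0.076), *Spon2* (0.10) and *Spry4* (0.11), against a median of 0.65 over all genes. For *Grb10* they were *Pde4dip* (0.013), *Cpped1* (0.020) and *Ptgfrn* (0.033), and for *Plagl1* *Mtmr1*, *Satb1* and *Nudt12* (0.038 to 0.048). *Rian* was closest to *Sorbs3*, *Fgfr3* and *Inf2* (0.058 to 0.078), *Meg3* to *Tle2*, *Gm20605* and *Syne4* (0.091 to 0.17) and *Mirg* to *Zfp57*, *Begain* and *Gabbr1* (0.12 to 0.13). *Igf2* was closest to *Emc8*, *Tbc1d9b* and *Eef2* (0.020 each), *H19* to *Ube2a*, *Kars* and *Klhl9* (0.019 to 0.028), *Dlk1* to *Polr2e*, *S100a16* and *Rab35* (0.036 to 0.046) and *Peg3* to *Pcdhgb6*, *Mob1b* and *Atxn1* (0.039 to 0.040). Among the members themselves, *Igf2* and *H19* were the closest pair (0.080), followed by *H19* and *Dlk1* (0.095) and *Igf2* and *Dlk1* (0.10). The measure is small for any genes that vary little, so that closeness does not show shared variation.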

How the data were processed

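Poly(A) RNA of 4 *Nrg1GOF* and 4 WT ventricle samples, from an RNA input of 100 ng, was sequenced as directional libraries with single reads of 60 bases. The deposited values are expected counts made by the authors with RSEM (GRCm38, Ensembl 91, version 1.3.1, and cutadapt per the submitters' processing notes), which are not scaled for depth. The aligner and strand setting are not given in the sources used here. Coordinates are from GENCODE M21 on GRCm38, a later annotation than the one used for counting.

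Expected counts were rounded, filtered with filterByExpr, scaled by TMM and tested with genotype as the sole term in edgeR 4.0.16 (R 4.3.3) by its quasi-likelihood F-test, with Benjamini-Hochberg adjustment over 15580 genes. Called means an adjusted p under 0.05. Each SE was obtained as the size of the log2 fold change over the square root of the F statistic. CPM use the TMM-scaled library sizes. Ratios between members, taken from the expected counts with nothing added, were compared by exact two-sided permutation of the 8 libraries (70 assignments). Adding 0.5 to both counts was run as an alternative. Profiles used log2 of CPM plus 0.5 for genes with an average log2 CPM of at least 1.

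Members and gene lists were chosen with earlier results of these data known. Genes named in the text were the members, *Nrg1*, up to 3 called genes at either end of each list, the 3 nearest profiles of each member and the hosted miRNAs. Others (overlapping genes, cell type markers, *Neat1*, *Cpa1* and further members of the IGF pathway and imprint maintenance lists) were named after their values were seen. Alternatives were RLE scaling, library totals, other low-count filters, unrounded counts, DESeq2 1.42.0, limma-voom (limma 3.58.1), a replicate block, WT libraries summed by pairs and leaving out each library. Comparison with each WT pair alone was added after seeing the data.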

Additional observations from a re-analysis of the deposited data

Results flagged for a closer look

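Among 30 groups of 4 libraries examined for a library far from the others, 4 held one, where chance gives about 1.5 (1 in 20). In *Nrg1GOF* ventricles *Rian* stood at 279 CPM in library 3, with the other 3 libraries between 196 and 198 CPM. *Mirg* stood at 7.87 CPM in the same library, with the others between 3.86 and 4.29 CPM. The log2 ratio of *H19* to *Igf2* was lowest there as well, at 0.38, with the others between 0.46 and 0.48. All of these belong to *Nrg1GOF* library 3. The remaining one is depth, since *Nrg1GOF* library 4 held 8038641 counts and the other 3 between 20578081 and 22547833. The source of these differences was not tested.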

How the results depend on the processing

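Of 340 values recomputed under alternatives, 321 kept their direction and side of the threshold, or stayed within 1.5 times for a count. *Mest* (1.20 to 1.32) and *Grb10* (-0.47 to -0.33) were called under every alternative run, and 4 members were called in each fit that left out a library. With the WT libraries summed by pairs, 2464 genes (1548 higher, 916 lower), 2 members, 11 other imprinted genes and 1 imprint maintenance gene were called, and *Rian* (0.51) and *Plagl1* (-0.28) were not. This leaves fewer samples. Imprint maintenance genes called numbered 1 with library totals alone, 1 without a low-count filter, and 1 to 3 when a library was left out. *Meg3* ranged from -0.30 (without *Nrg1GOF* library 3) to 0.42 when a library was left out, and the *Dlk1* to *Meg3* ratio from -0.43 to 0.16 (without the same library). Against WT libraries 3 and 4 alone, *Meg3* reversed to -0.25, *Rian* was no longer called (0.36) and *Peg3* became called (0.39). Against WT libraries 1 and 2 alone, *Plagl1* was no longer called (-0.23). The lists were not run against these WT pairs. Causes were not tested. Leaving out a library gave 3239 to 4261 called genes. Library totals in place of TMM turned the split of 2474 higher and 1993 lower to 2874 and 1521, and the median log2 fold change from -0.01 to 0.03.

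A replicate block on the numbers of the titles gave 4524 called genes (2407 higher, 2117 lower) and 4 called members, and no call of a member changed. With 16 sign patterns a ratio could not go below p = 0.125 under the exact test. Deviations of same-numbered libraries correlated at 0.13, 0.05, 0.20 and 0.07, not all above 0.1, so the numbers were not taken to pair the samples. Among the members *Mirg* had the fewest counts, 31 in the shallowest library.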

Other observations

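Beside *Neat1*, 5 other noncoding RNAs were looked up after the values of *Meg3* were seen. *Snhg11* was also higher in WT libraries 3 and 4 (0.40 and 0.29 CPM) than in WT libraries 1 and 2 (0.076 and 0.22 CPM) and highest among *Nrg1GOF* libraries in library 3 (0.34 CPM), but with 1.84 to 10.3 counts in a library, partly under the floor of 3 counts. *Peg13* lay between 31.4 and 35.4 CPM in all 8 libraries. *Malat1* stood at 326, 518, 255 and 291 CPM in WT libraries 1 to 4 and at 475, 241, 306 and 220 CPM in *Nrg1GOF* libraries 1 to 4. *Kcnq1ot1* was high in WT library 2 and *Nrg1GOF* library 1, at 36.7 and 36.2 CPM, and between 13.1 and 20.2 CPM in the other 6. *Airn*, the antisense RNA of the *Igf2r* locus, ranged from 20.8 to 35.3 CPM. Mitochondrial transcripts took 5.78% of the counts in each of WT libraries 3 and 4 and 4.30% and 4.48% in WT libraries 1 and 2, and among the *Nrg1GOF* libraries library 3 was highest, at 4.35% against 3.10% to 3.73%. Their part in the levels of *Meg3* was not tested.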
